A study of Mus musculus with 48 samples.

Results

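Cck, Cckbr, Sncg, Slc17a8, Vip, Cxcl14, Npas1, Calb2 and Adarb2 are genes by which CCK and VIP interneurons of the mouse hippocampus are recognised, together with the receptor for the peptide CCK. They were chosen by name, by a rule that used no measured value but with earlier results of these data known, and all 9 were found among the 24421 genes of the count table, of which 20825 had a count in at least 1 of the 48 libraries. Each passed the filter on low counts in every comparison. CCK basket cells are interneurons that contact the cell bodies of pyramidal cells, and their terminals carry the densest cannabinoid receptor CB1 in the hippocampus. Endocannabinoids released by the postsynaptic cell act on this CB1 and reduce GABA release. VIP interneurons come from the same part of the embryonic brain, the caudal ganglionic eminence, and many of them contact other interneurons.

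Each library came from the microdissected cornu ammonis (CA) of 1 male mouse, labelled 8 weeks of age, of a line that carried floxed CB1 alleles (CB1f/f). In the Glu-CB1 line Cre was driven by nex regulatory elements, and in the GABA-CB1 line by those of dlx5/6, so that CB1 was removed from glutamatergic or GABAergic neurons of the knockouts (KO) and in neither line from CCK or VIP cells alone. CB1-WT littermates served as controls of each line, and the sources used here do not say whether they carried Cre. Mice were taken from the home cage (basal: 5 WT and 7 KO of the Glu-CB1 line, 6 WT and 6 KO of the GABA-CB1 line) or after 5 min in an open field, a new arena that raises neuronal activity, with the tissue isolated an hour later (5 WT and 7 KO, then 7 WT and 5 KO). Group sizes are those of the labels, and the study's text gives the last pair in the reverse order. Before sequencing, the study picked mice by the purity of the dissected tissue and by behavior and neuronal activity in the arena. Levels are given as CPM, the reads of a gene relative to all counted reads of its library, after scaling by the trimmed mean of M values (TMM). Pyramidal cells also express some of the members, Cck and Cckbr among them, and in a bulk tissue fewer cells of a type and less RNA per cell cannot be told apart.

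The libraries held 25892654 to 34091080 counted reads. Cnr1, which encodes CB1, was below every WT library of its line and state in every KO library: in the Glu-CB1 line the log2 difference of KO from WT was -0.73 (basal) and -0.72 (open field), and in the GABA-CB1 line it was -1.23 and -1.45. On the first principal component of all libraries, which took 17.5% of the variance of the 500 most variable genes, 14 libraries stood apart, with 1 to 3 in each group. Another 3 libraries held over 500 CPM of Ttr, a transcript of the choroid plexus. Genes of CA1, CA3 and CA2 pyramidal cells were detected in all libraries, and all 7 listed dentate granule cell genes also reached a mean of 1 CPM. All libraries of the Glu-CB1 line have lower running numbers than those of the GABA-CB1 line, and within each line all basal libraries have lower numbers than the open field libraries. Among basal GABA-CB1 mice all WT libraries also have lower numbers than all KO libraries, and in the other sets most WT numbers lie below most KO numbers. Differences between the lines, between the states and between the genotypes of basal GABA-CB1 mice therefore cannot be told apart from library number. The labels do not say what the number stands for. The study's methods state that the sequencing pools were made from libraries that represented all experimental groups.

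None of the loci overlapped another gene of the table in the mm10 annotation used for counting. Cck, the precursor of the peptide cholecystokinin, lies on the minus strand at chr9:121489824-121495694. Cckbr, the receptor for CCK that predominates in brain, lies on the plus strand at chr7:105425731-105436339. Vip, the precursor of vasoactive intestinal peptide, lies on the plus strand at chr10:5639218-5647614, and Slc17a8 (VGLUT3, a vesicular glutamate transporter of a subset of CCK cells) on the minus strand at chr10:89574020-89621249. Sncg (gamma-synuclein) is at chr14:34370274-34374669, Cxcl14 (a chemokine) at chr13:56288643-56296551 and Calb2 (the calcium-binding protein calretinin) at chr8:110142538-110168206, all on the minus strand. Npas1, a transcription factor, is on the minus strand at chr7:16455721-16476780. Adarb2, which encodes a relative of the RNA-editing enzymes and marks caudal-eminence interneurons, spans chr13:8202866-8768762 on the plus strand, the longest of the loci.

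RefSeq promoter windows (GRCm38.p6, 250 bases before to 50 after the start site) were at hand for 8 of the 9 genes. The 150 bases before the start site are shown for the 2 peptide genes and for Cckbr, the member that changed with the open field, because the activity-regulated cAMP response element is a textbook motif of peptide gene promoters. Capitals mark the short form of that element, TGACG or its reverse complement.
Cck: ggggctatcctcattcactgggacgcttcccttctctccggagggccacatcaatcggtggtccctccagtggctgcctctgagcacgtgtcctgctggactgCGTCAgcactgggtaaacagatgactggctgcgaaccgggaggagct
Vip: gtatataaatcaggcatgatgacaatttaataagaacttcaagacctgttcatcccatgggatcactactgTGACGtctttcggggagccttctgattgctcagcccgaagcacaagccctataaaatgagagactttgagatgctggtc
Cckbr: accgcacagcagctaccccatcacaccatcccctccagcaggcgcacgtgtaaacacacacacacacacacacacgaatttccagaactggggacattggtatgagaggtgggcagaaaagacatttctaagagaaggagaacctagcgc
The stretches lie at chr9:121495695-121495844 (minus strand), chr10:5639068-5639217 (plus strand) and chr7:105425581-105425730 (plus strand). Counting back from the start site, TGACG began 79 bases before it in Vip (plus strand of the gene), and the reverse complement began 47 bases before it in Cck. Among all members the short form was also found across the start site of Sncg, and 20.8% of the 32817 RefSeq windows held it on either strand. The full element TGACGTCA (1.79% of windows, itself containing the short form), the AP-1 site TGANTCA (7.81%) and the EGR site GCGTGGGCG (0.612%) were in no member's window. These are matches of letters and say nothing of binding.

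Cck was the most abundant member. Its normalised level ranged from 144 to 200 CPM over the 48 libraries (median 174), and per kilobase of exon it averaged 204 CPM, above 98.8% of the 13708 genes with a mean of at least 1 CPM. Cxcl14 followed with 34.8 CPM per kilobase, then Vip with 12.1, Calb2 with 10.6 and Npas1 with 5.29. Sncg (4.22), Adarb2 (4.01), Cckbr (2.81) and Slc17a8 (2.36) were lowest on the per-kilobase scale. Sst and Pvalb, the markers of 2 other classes of interneuron, reached 172 and 30.6 CPM per kilobase in the same libraries. Relatives from the same gene families were often far higher: the vesicular transporter Slc17a7 stood at 571 CPM per kilobase, the synuclein Sncb at 174 and the editing enzyme Adarb1 at 35.2.

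The order of the 8 group means was nearly flat for most members. The highest group mean exceeded the lowest by 1.07-fold for Cxcl14, 1.08-fold for Cck, 1.12-fold for Slc17a8, 1.13-fold for Adarb2, 1.15-fold for Vip, 1.17-fold for Npas1 and 1.26-fold for Sncg. Cckbr (1.46-fold) and Calb2 (1.47-fold) differed most between groups. For every member, each group overlapped its neighbours in that order, and of the 28 pairs of groups 2 did not overlap for Cckbr, 1 for Sncg and 0 for the other members. Of the 13708 genes with a mean of at least 1 CPM, 14.4% had at least 1 such pair and 6.81% at least 2. The pair for Sncg (GABA-CB1-KO open field above Glu-CB1-WT basal) overlapped once libraries were scaled without TMM.

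**Figure D1:**
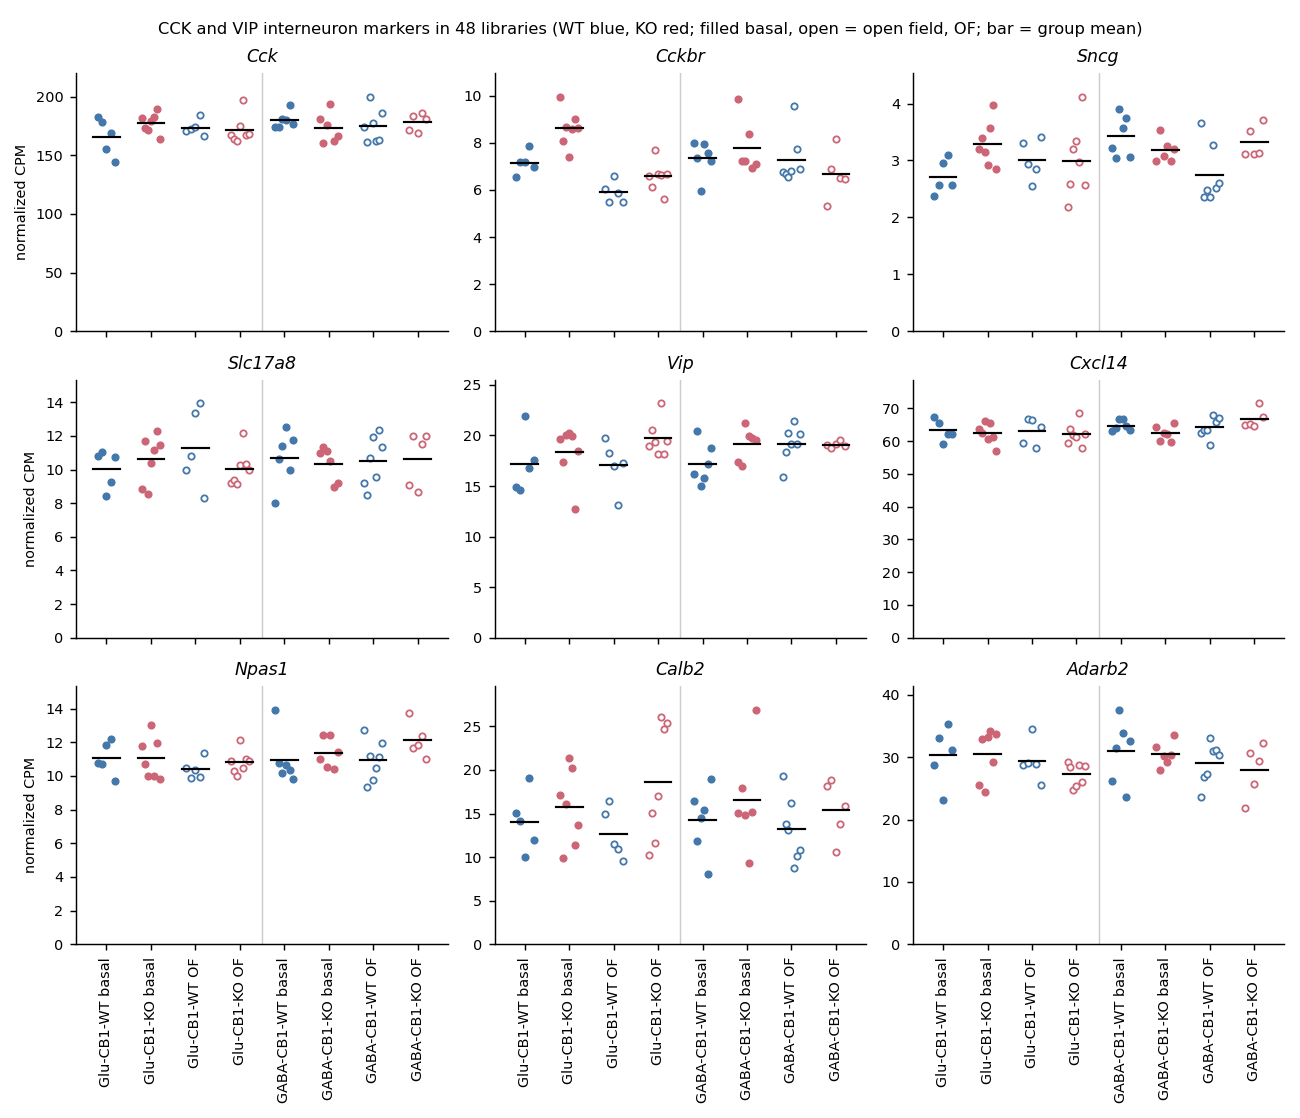
Normalised CPM (vertical axes, from 0) of the 9 members in each of the 48 libraries, by group on the horizontal axis, with black bars at the group means. The lowest means of Cckbr are those of the Glu-CB1-WT (5.90 CPM) and Glu-CB1-KO (6.58 CPM) open field groups. GABA-CB1-KO open field mice lie close to the latter at 6.67 CPM and hold the lowest single library. Calb2 spreads from 8.01 to 26.9 CPM, and Cck and Cxcl14 vary least.

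Cckbr was the only member whose difference passed the test in any of the 14 comparisons. In the Glu-CB1 line it fell after the open field by 0.35 on the log2 scale (SE 0.053; 0.787-fold, 95% confidence interval 0.729 to 0.848; 10 WT and 14 KO mice; edgeR quasi-likelihood test, adjusted p = 0.00107). It ranked 9 by p among the 15355 genes tested, of which 276 (204 higher and 72 lower, 1.8%) passed. The count among the members was 1 of 9. Of the 9 differences 6 were negative and 3 positive, with a median of -0.01 beside -0.00 over all genes tested.

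Basal Glu-CB1-WT mice had 6.54, 7.20, 7.18, 7.88 and 6.96 CPM of Cckbr, and after the open field such mice had 6.06, 5.47, 6.58, 5.87 and 5.49 CPM. Basal Glu-CB1-KO mice ranged from 7.40 to 9.96 CPM with a median of 8.63, and open field Glu-CB1-KO mice from 5.60 to 7.71 CPM with a median of 6.62. In WT mice only the lowest basal library lay below the highest open field library, and in KO mice 1 library of each state fell within the range of the other. The difference was seen in both genotypes: it was -0.28 in WT (exact two-sided permutation test, p = 0.0159, adjusted over 4 tests p = 0.0317) and -0.39 in KO (p = 0.00117, adjusted p = 0.00466). Cckbr had been picked by the fit of these same libraries before the permutation tests were run. Their p-values therefore describe each genotype and are not independent evidence. The interaction of genotype and state was -0.11 (95% confidence interval -0.33 to 0.11, edgeR, adjusted p = 1.00).

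In the GABA-CB1 line the corresponding difference of Cckbr was -0.11 (SE 0.078, 95% confidence interval -0.27 to 0.05, edgeR, adjusted p = 0.646), and 0 of the 9 members passed where 0.963% of all genes did. GABA-CB1-WT mice had 5.95 to 7.99 CPM (median 7.48) when basal and 6.54 to 9.56 CPM (median 6.80) after the arena, and the exact permutation test gave p = 0.868. Basal GABA-CB1-KO mice had 6.92 to 9.86 CPM (median 7.24). Open field GABA-CB1-KO mice had 5.30 to 8.17 CPM (median 6.52), a difference of -0.22 with p = 0.126 by the exact test. The groups of this line overlapped throughout. The difference between the lines was tested after these values had been seen: it was -0.24 (95% confidence interval -0.43 to -0.05) with an unadjusted p = 0.0159 and adjusted p = 1.00 in edgeR. For that test 0 of 15570 genes (0%) passed in edgeR and 0 in DESeq2, with 296 at an unadjusted p under 0.05. The lines were therefore not shown to differ in this response.

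**Figure D2:**
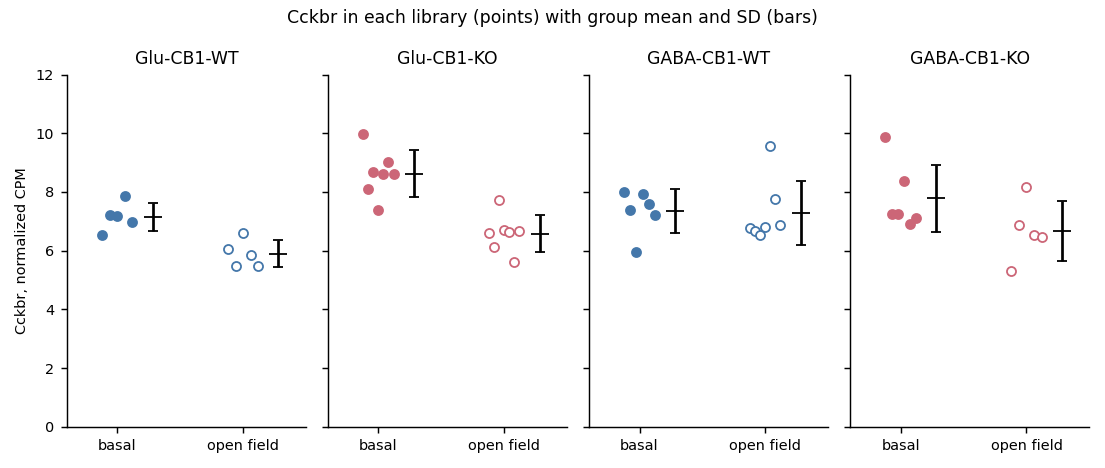
Normalised CPM of Cckbr (vertical axis, from 0) in basal and open field libraries of each genotype and line, with points for single mice and bars for the group mean and SD. In the Glu-CB1 line the means were 7.15 and 5.90 CPM in WT and 8.62 and 6.58 CPM in KO, while the ranges of the GABA-CB1 line overlap widely.

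The tissue around the receptor was recorded beside this result. Immediate early genes, which report neuronal activity, rose in both lines (8 of 10 passed in each), among them Fos by log2 differences of 1.92 and 1.95 and Arc by 0.64 and 0.69 in the Glu-CB1 and GABA-CB1 lines. The study had picked mice partly by their neuronal activity and measured hippocampal activation by Arc, so this rise was not independent of that choice. Of 8 genes that mark subiculum and cortex, regions next to the dissected tissue, 0 passed in the Glu-CB1 line (edgeR, and 0 in DESeq2; 2 at an unadjusted p under 0.05), 6 had a negative difference and the median was -0.07. Their summed level ran from 169 to 276 CPM in basal and 180 to 244 CPM in open field Glu-CB1-WT mice, and from 182 to 304 and 215 to 262 CPM in the KO mice. Of 5 CA1 genes 0 passed in either tool (1 at an unadjusted p under 0.05 in edgeR) and the median was -0.02. After group means were subtracted, the strongest r of Cckbr over the lists was -0.36 with oligodendrocyte genes, then 0.36 with family relatives of the members. Across the same libraries Cckbr had r = 0.30 with the subiculum and cortex list and r = 0.29 with the CA1 list. The part of these tissues in the Cckbr difference was not tested. Basal and open field libraries also differ in running number, which cannot be told apart from state. Without the 9 libraries of this line that stood apart the difference was -0.32 (edgeR, adjusted p = 0.0224), and without its 1 high-Ttr library it was -0.34 (adjusted p = 0.00272).

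The other partners of the peptide systems passed no edgeR test in any comparison (0 to 3 at an unadjusted p under 0.05). The list held 6 genes, of which 4 could be tested: the VIP receptors Vipr1 and Vipr2, Adcyap1, the precursor of the related peptide PACAP, and its receptor Adcyap1r1. Cckar, the other CCK receptor (mean 0.0564 CPM), and Gast, the gastrin precursor (mean 0.0258 CPM), were close to 0 in all libraries. For the open field, 0 of the 4 reached an unadjusted p under 0.05 in the Glu-CB1 line and 2 did in the GABA-CB1 line. DESeq2 called 1 of the 4 in 1 comparison, the difference between the lines in the KO effect after the open field (Adcyap1, 1.298 on the log2 scale, adjusted p = 0.0435). The difference of Cck after the open field was -0.00 in each line, with 95% confidence intervals of -0.08 to 0.08 and -0.08 to 0.07. Vip differed by 0.06 (-0.09 to 0.22) in the Glu-CB1 line and by 0.09 (-0.02 to 0.19) in the GABA-CB1 line.

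In edgeR, loss of CB1 left the members without a call in either line. In the basal state, 0 of 9 members passed in the Glu-CB1 line, where 3 of 15138 genes (0.0198%) did, and 0 of 9 in the GABA-CB1 line, where 37 of 15082 (0.245%) did. After the open field the counts were 0 of 9 against 0.272% of genes in the Glu-CB1 line and 0 of 9 against 0.0199% in the GABA-CB1 line. With both states in one fit they were 0 of 9 against 0.274% and 0 of 9 against 0.358%. At an unadjusted p under 0.05 the edgeR counts were 2, 2 and 2 members for basal, open field and both states in the Glu-CB1 line and 0, 1 and 0 in the GABA-CB1 line. DESeq2 called 0 members in 5 of these 6 comparisons and 1, Cckbr, in the Glu-CB1 line over both states. No more than a small share of all genes passed in any of these comparisons, so that counts of 0 are close to the background.

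Cckbr came nearest to a call. Over both states its log2 level in Glu-CB1-KO mice exceeded that of WT mice by 0.21 (SE 0.054, 95% confidence interval 0.10 to 0.33, edgeR, adjusted p = 0.111). DESeq2 gave the same size (0.22) with adjusted p = 0.0333, and without Glu-CB1-KO open field replicate 6 edgeR gave 0.23 with adjusted p = 0.0464. That was the only call among 24 edgeR fits with a library left out, where the adjusted p reached 0.218. Without the libraries that stood apart on the first principal component the difference was 0.17 (edgeR, adjusted p = 0.456). In the basal state the difference was 0.27 (adjusted p = 0.999), with 6 of the 7 KO libraries, at 8.09 CPM or more, above the highest WT library at 7.88 CPM. After the open field it was 0.16 (95% confidence interval -0.02 to 0.33). In GABA-CB1 mice it was 0.09 at baseline and -0.13 after the arena, and over both states -0.02 (95% confidence interval -0.18 to 0.14, adjusted p = 0.982). The test of the difference between the lines over both states gave 0.23 (0.04 to 0.43, adjusted p = 0.423).

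Sncg, a marker of CCK basket cells and the least abundant member by CPM, was at 2.37 to 3.10 CPM in basal Glu-CB1-WT and 2.85 to 3.97 CPM in basal Glu-CB1-KO mice, and these ranges overlapped. That difference was 0.28 (95% confidence interval 0.06 to 0.50, edgeR, unadjusted p = 0.0179, adjusted p = 0.999), and after the open field it was -0.01 (-0.31 to 0.29). In GABA-CB1 mice it was -0.11 (-0.29 to 0.07) at baseline and 0.27 (0.00 to 0.53, unadjusted p = 0.0464, adjusted p = 0.369) after the open field. GABA-CB1-WT open field mice ranged from 2.35 to 3.66 CPM and GABA-CB1-KO mice from 3.12 to 3.70 CPM, so that these groups overlapped. The interaction of genotype and state was 0.38 in that line (0.07 to 0.68, adjusted p = 0.266). The difference between the lines in the basal KO effect was 0.39 (0.12 to 0.66, adjusted p = 0.34), and neither passed.

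Calb2 had the largest spread of the members, and the largest single difference between KO and WT mice. Glu-CB1-WT open field mice had 14.96, 16.41, 11.53, 10.89 and 9.57 CPM, and Glu-CB1-KO open field mice had 10.29 to 26.03 CPM with a median of 16.98. Of the 7 KO libraries 4 lay above all WT libraries, 3 of them at 24.66 CPM or more, and the other 3 lay within the WT range. The difference was 0.55 (95% confidence interval 0.06 to 1.04, edgeR, unadjusted p = 0.0293, adjusted p = 0.613). It was 0.16 (-0.25 to 0.57) in the basal state of that line, 0.22 (-0.25 to 0.70) in basal and 0.23 (-0.16 to 0.62) in open field mice of the GABA-CB1 line. All 4 differences were positive and none passed.

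Vip was 18.2 to 23.2 CPM in Glu-CB1-KO and 13.2 to 19.8 CPM in Glu-CB1-WT open field mice, a difference of 0.20 (95% confidence interval 0.02 to 0.39, edgeR, adjusted p = 0.64). It differed by 0.09 (-0.16 to 0.35) in the basal state, and by 0.15 (-0.01 to 0.31) and -0.01 (-0.14 to 0.12) in basal and open field mice of the GABA-CB1 line. For Cck the 4 KO differences lay between -0.05 and 0.10, and the widest interval reached from -0.02 to 0.21. For Cxcl14 they lay between -0.05 and 0.06, and over both states the intervals were -0.09 to 0.04 in the Glu-CB1 and -0.06 to 0.06 in the GABA-CB1 line. Slc17a8 had differences of 0.08, -0.17, -0.05 and 0.02 for basal and open field Glu-CB1 and then GABA-CB1 mice, and Adarb2 0.01, -0.11, -0.02 and -0.05. Those of Npas1 were -0.00, 0.06, 0.06 and 0.15. For these 3 genes every interval included 0.

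**Figure D3:**
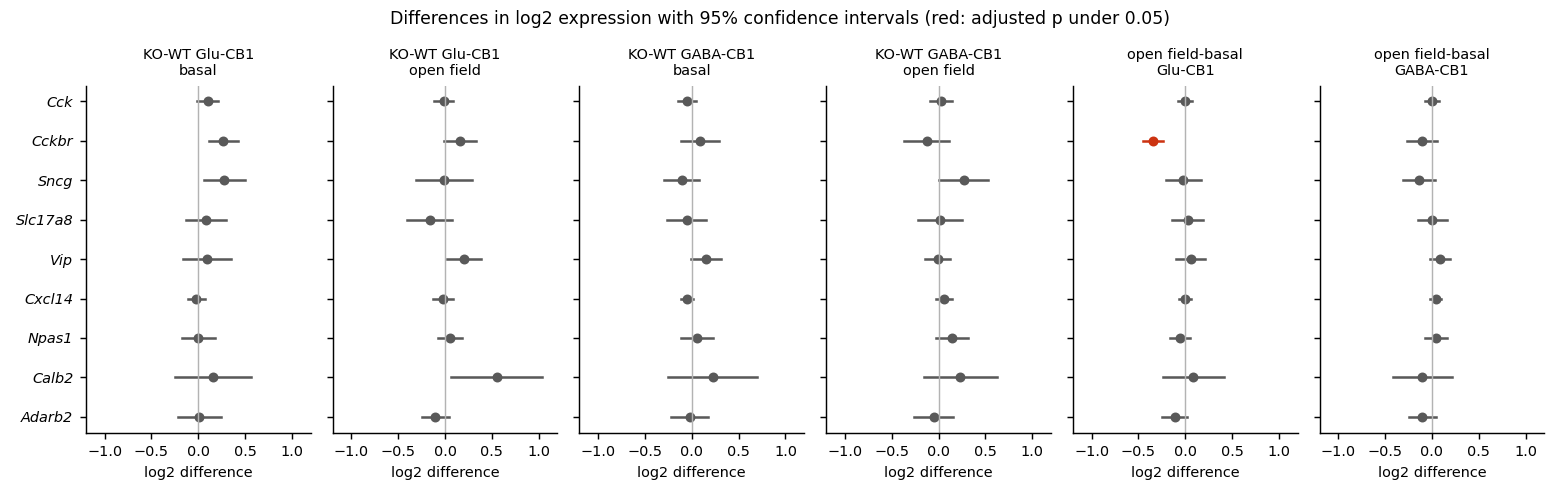
Differences on the log2 scale (horizontal axes) of the 9 members for KO against WT mice by line and state and for open field against basal mice by line, with 95% confidence intervals. Among the comparisons drawn, only Cckbr in the open field comparison of the Glu-CB1 line, at -0.35 (red), passed an adjusted p of 0.05, and the intervals of Calb2 are the widest.

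The effect of genotype on the open field response was tested for all genes, and 0 passed in either line (0% each, edgeR; 379 genes in Glu-CB1 and 2237 in GABA-CB1 mice at an unadjusted p under 0.05; DESeq2 called 0 and 62). Among the members 0 reached that level in the Glu-CB1 line, and Sncg and Cxcl14 did in the GABA-CB1 line, the latter with 0.11 (0.01 to 0.21, adjusted p = 0.323). Differences between the lines in the KO effect passed for 0 of 9 members in the basal state (0.279% of all genes), after the open field (0.568%) and over both states (0.745%). In these tests 2, 0 and 1 members had an unadjusted p under 0.05. DESeq2 called 0 members in each of these 5 tests.

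Interneuron genes outside the members were counted in the same fits. Of 16 other genes of CCK, VIP and related interneurons, such as the serotonin receptor gene Htr3a and the neurogliaform markers Lamp5 and Reln, 15 were tested, and 0 passed in any comparison (edgeR, and 0 in DESeq2; between 0 and 5 at an unadjusted p under 0.05). Of 12 parvalbumin and somatostatin interneuron genes 11 were tested. Over both states 3 of these rose in Glu-CB1-KO mice (edgeR, and 3 in DESeq2): the neuropeptide Npy by 0.48, the CRH-binding protein Crhbp by 0.48 and Sst by 0.36. In GABA-CB1-KO mice 3 fell (edgeR, and 5 in DESeq2, with Tac1 and Npy added): Crhbp by 0.42, Sst by 0.31 and Pvalb, a calcium-binding protein, by 0.17. The median KO difference of that list was 0.16 in the Glu-CB1 and -0.17 in the GABA-CB1 line. The medians of the 9 members were 0.04 and 0.00, and of all genes -0.00 in both. The study had already named Crhbp, Npy and Sst among genes changed oppositely in the lines after the open field. All lists were chosen with earlier results of these data known, so the medians of the parvalbumin and somatostatin list are not independent evidence. Of 10 family relatives 1 passed edgeR in any KO comparison within a line: Npas4, an activity-regulated transcription factor, fell by 0.49 in basal GABA-CB1-KO mice. DESeq2 also called Npas2 (0.29, Glu-CB1 open field) and Calb1 (0.23, Glu-CB1 over both states).

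Mice of 1 group differed from each other far more in some members than in others. The standard deviation (SD) within groups, over 40 residual degrees of freedom, was 0.43 on the log2 scale for Calb2, above 98.7% of the 2102 genes of like level. Adarb2 (0.18, above 94.3% of its like), Vip (0.17, 88.7%) and Slc17a8 (0.20, 87.6%) also spread more than most genes at their level. Cck (0.09, 72.1%), Cckbr (0.16, 63.2%) and Npas1 (0.13, 60.5%) were nearer the middle. Cxcl14 (0.07, 40.9%) and Sncg (0.19, 37.3%) were below it. In the basal Glu-CB1 comparison the 95% interval of the KO difference reached 0.09 to either side for Cxcl14, the least among the members, and 0.41 for Calb2, the most.

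**Figure D4:**
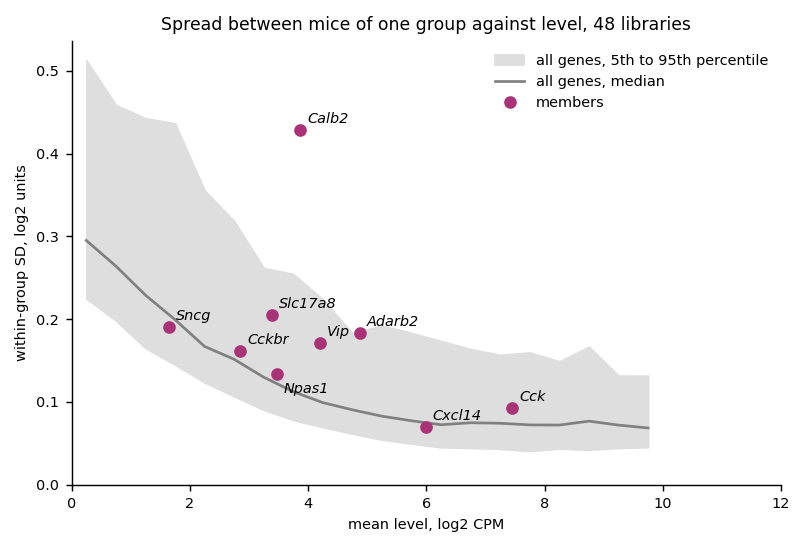
Standard deviation within groups (vertical axis, log2 units) against mean level (horizontal axis, log2 CPM) for the 9 members, over the 5th to 95th percentile band and the median of all genes in bins of level. Calb2, at 0.43, lies above the band, and Cxcl14, at 0.07, lies near the median.

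From mouse to mouse most pairs of members had weak correlations. After group means were subtracted, Pearson's r over the 48 libraries was computed for the 36 pairs of members as a description, all from the same libraries and scaling. The highest was 0.61 (Spearman's rho 0.58) for Slc17a8 and Adarb2. It was 0.59 in the Glu-CB1 and 0.63 in the GABA-CB1 line, but 0.41 in the 34 libraries that did not stand apart and 0.53 in the 14 that did. Next came Cck and Slc17a8 with 0.41 (rho 0.43), and the lowest was -0.36 (rho -0.31) for Cckbr and Calb2. Cck and Vip had -0.17, Cck and Cckbr -0.01, and Cck and Sncg 0.04.

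Of all members and lists of marker genes, the 2 largest correlations were those of Vip with CA3 and CA2 and with subiculum and cortex genes. Its r was -0.70 (rho -0.64) with the mean of 9 CA3 and CA2 genes, 0.69 (rho 0.62) with that of 8 subiculum and cortex genes and, further down the order, 0.51 (rho 0.56) with that of 5 CA1 genes. Without the 2 libraries farthest out in each list the first 2 values were -0.65 and 0.60. They were -0.78 and 0.77 in the Glu-CB1 and -0.58 and 0.55 in the GABA-CB1 line. The library with the lowest Vip, Glu-CB1-KO basal replicate 6 at 12.7 CPM, was also 1 of the 3 with high Ttr. The part of regional content in the differences of Vip between groups was not tested. Vip differed most after the open field in the Glu-CB1 line. There 1 of the 9 CA3 and CA2 genes was called lower in KO mice (Iyd by -0.56, edgeR, adjusted p = 0.0463). Of the 8 subiculum and cortex genes 1 was called higher (Fezf2 by 0.33, edgeR, adjusted p = 0.0361). DESeq2 called both as well, and also Rprm of the latter list (0.51, adjusted p = 0.00794). Of 10 genes that mark the thalamus, which lies next to the hippocampus, 2 were called lower there (Prkcd by -0.58, adjusted p = 0.00309, and Plekhg1 by -0.42, adjusted p = 0.0424), and Vip had r = -0.21 with that list. Over both states of the Glu-CB1 line, 8 of the 9 CA3 and CA2 genes had a negative KO difference (median -0.13, 0 passed in edgeR or DESeq2, 2 at an unadjusted p under 0.05), and 6 of the 8 subiculum and cortex genes a positive one (median 0.21, 0 passed in edgeR, 1 in DESeq2, 5 at an unadjusted p under 0.05). In open field mice of the GABA-CB1 line the summed level of the CA3 and CA2 genes ran higher in KO mice. It was 350 to 437 CPM in WT and 429 to 510 CPM in KO mice. There DESeq2, but not edgeR, called 2 of them higher (Cdh24 by 0.28, adjusted p = 0.0426, and Pcp4 by 0.19, adjusted p = 0.00343). Vip averaged 19.2 CPM in the same WT and 19.1 CPM in the same KO mice.

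Adarb2 and Slc17a8 moved with the libraries that stood apart on the first principal component. Adarb2 had a median of 25.6 CPM in those 14 libraries (23.2 to 32.98) and of 30.8 CPM in the other 34 (21.9 to 37.6), a ratio of 0.832. Slc17a8 had medians of 9.29 and 11.01 CPM, a ratio of 0.844. For the other 7 members the ratio lay between 0.933 and 1.08. Adarb2 also had r = 0.63 (rho 0.60) with the mean of 7 dentate granule cell genes, at 0.50 in the Glu-CB1 and 0.78 in the GABA-CB1 line. Slc17a8 had 0.52 with the CA3 and CA2 list, at 0.77 in the Glu-CB1 and 0.23 in the GABA-CB1 line. With the mean of all GABAergic genes r was 0.50 for Adarb2, but 0.20 in the 34 libraries and -0.42 in the 14.

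The 3 genes most like each member, by r over the 48 libraries, came from the whole table. Cck was most like Cnih2, which encodes an AMPA receptor auxiliary subunit (0.78), Arpc3, of the actin-nucleating Arp2/3 complex (0.74), and Rasd1 (0.73). Vip was most like Slc35f1 (0.80), Klhl1 (0.78) and Lrrtm3, a synaptic adhesion protein (0.76). Adarb2 had the highest value of all, 0.89 with the sodium channel gene Scn3a, followed by Thsd7a (0.87) and Ptbp3 (0.84). In the 34 libraries that did not stand apart these were 0.79, 0.69 and 0.75. Slc17a8 was most like the cadherin Cdh8 (0.73), Cd38 (0.71) and Cog5 (0.70), and Npas1 most like Atp13a2 (0.72), Pik3r2 (0.70) and Pcnxl3 (0.68). Cxcl14 came with Egln1 (0.67), the peptide gene Apln (0.60) and Glul, glutamine synthetase of astrocytes (0.58). Calb2 came with the receptor gene Glp2r (0.61), Stk32a (0.59) and Vgll3 (0.56). Sncg came with Phgdh, an enzyme of serine synthesis (0.60), Aldh1a2 (0.54) and Lhfp (0.54), and Cckbr with Sept11 (0.58), the synuclein Sncb (0.57) and Cpne5 (0.55). None of the 27 genes was itself a member. These values share the libraries and scaling of the members themselves.

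**Figure D5:**
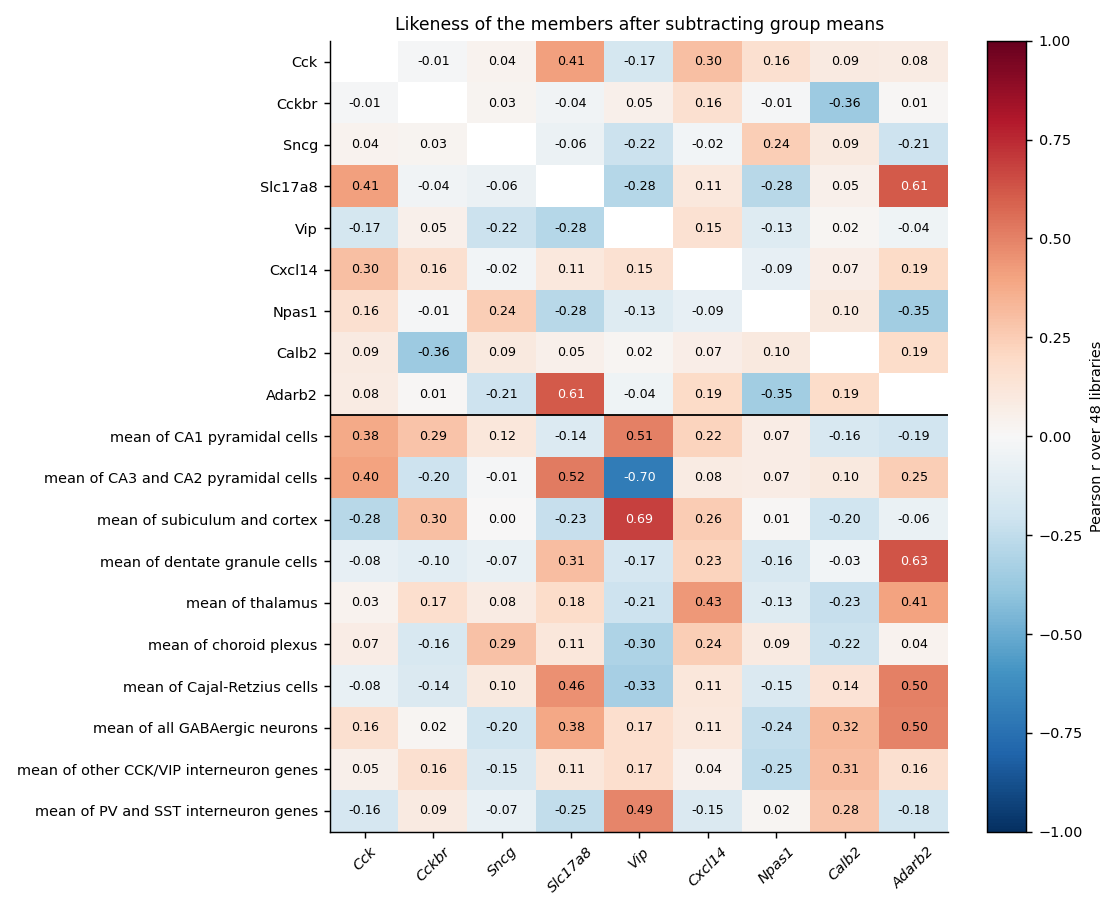
Pearson's r over the 48 libraries after subtraction of group means (color, from -1 to 1), for each pair of members and for each member with the mean of 10 lists of marker genes. The strongest values are those of Vip with CA3 and CA2 genes (-0.70) and with subiculum and cortex genes (0.69).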

How the data were processed

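RNA from the CA tissue of 48 mice was amplified by a single-primer isothermal method, and 50-base single reads were sequenced. Per the labels and the study's methods, the authors aligned reads to mm10 with STAR 2.6.0a and counted them per gene with featureCounts 1.6.2 under a reverse-strand setting. The deposited values are raw counts per gene; whether the kit marks strand is not given in the sources used here. The members and all gene lists were chosen with earlier results of these data known.

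Genes were tested with edgeR 4.0.16 (TMM, filterByExpr by group, quasi-likelihood, Benjamini-Hochberg over all genes, threshold 0.05), with only the libraries of each comparison in a fit. Comparisons were KO against WT by line and state, KO against WT and open field against basal by line, and the interactions. The named genes were all members, Cnr1, the 3 genes most like each member, and up to 4 called genes per interneuron or family list and comparison; Fos, Arc, Iyd, Fezf2, Prkcd and Plekhg1 were named after their values were seen, as were the further calls of DESeq2. Likeness is Pearson's r of log2 CPM (prior count 2) minus group means, over genes with a mean of at least 1 CPM. For Cckbr alone, mean log2 CPM was compared between open field and basal mice of each line and genotype by exact permutation tests in scipy 1.17.1. The fits were also run on simulated counts with known changes, and the outcome is not reported here. Alternatives were DESeq2 1.42.0, other scalings and filters, all libraries in one fit, a replicate block, animal number range, and each library left out. In the Glu-CB1 line the animal number range was cut above 895, not just above 801, the highest number among the libraries that stood apart. The first principal component as a covariate, fits without the libraries that stood apart or with high Ttr, the line difference in the open field response and the permutation tests were added after seeing the data. No 2 libraries of a group agreed within sampling noise. At the lowest, 61 reads (Sncg) stood behind a value. Amplified reads are not independent molecules.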

Additional observations from a re-analysis of the deposited data

Results flagged for a closer look

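Each member was checked in each group for a library far from the others by Dixon's test, and 6 of the 72 sets were picked out, where chance gives about 1 in 20. Cck was high in Glu-CB1-KO open field replicate 5 (197 CPM against 162 to 175 in the others) and in GABA-CB1-WT basal replicate 5 (193 CPM against 174 to 181). The first of these libraries also held the most Slc17a8 of its group, 12.2 CPM against 9.12 to 10.3. Cckbr was high in GABA-CB1-WT open field replicate 5 (9.56 CPM against 6.54 to 7.75). Vip was low in Glu-CB1-KO basal replicate 6 (12.7 CPM against 17.3 to 20.2), a library with high Ttr. Npas1 was high in GABA-CB1-WT basal replicate 1 (13.9 CPM against 9.85 to 10.8), which, like GABA-CB1-WT basal replicate 5, stood apart on the first principal component. No test of a difference in a member's KO effect, between lines or between states, passed an adjusted p of 0.05 in edgeR or DESeq2.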

How the results depend on the processing

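In 140 other fits of the 14 comparisons the number of members called was the same as in the main analysis in all but 1: DESeq2 called 1 member, Cckbr, in KO against WT of the Glu-CB1 line over both states, in place of 0. When each library was left out in turn, that count ranged from 0 to 1, with the call made only without Glu-CB1-KO open field replicate 6, and it did not move in the other 13 comparisons. The fall of Cckbr after the open field in the Glu-CB1 line stayed past the threshold in all 10 alternatives and all 24 fits with a library left out, where it ranged from -0.37 to -0.32. The cause of the DESeq2 call was not tested. Of the 1260 alternative values of single members, 55 changed sign, all for differences of at most 0.06 in the main analysis, and none of these passed in either fit. Counts over all genes moved more than those of the members, and the highest value below is that of DESeq2 in each case: for KO against WT in the basal and open field states they ranged from 2 to 14 (main 3) and 3 to 131 (main 41) in the Glu-CB1 line, and 8 to 110 (main 37) and 1 to 158 (main 3) in the GABA-CB1 line. Over both states they ranged from 14 to 106 (main 42) and 19 to 131 (main 55), for open field against basal from 193 to 496 (main 276) and 15 to 272 (main 148), and for the differences between lines from 30 to 90 (main 43), 44 to 213 (main 87) and 55 to 172 (main 116). For the interaction of genotype and state they were 0 in Glu-CB1 and 0 to 62 (main 0) in GABA-CB1 mice. Group means moved by at most 0.705% under other scalings, and none of the 36 values of r between members left its 95% interval under Spearman's rho.

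Samples with the same replicate number did not deviate together (r from -0.48 to 0.41 over 21 pairs, 5 of them above 0.1), so that the numbers do not pair the mice. With the replicate block Cckbr changed by -0.35 (edgeR, adjusted p = 0.00256) and the count was 1 member in the open field comparison of the Glu-CB1 line and 0 in the other 13. Sncg rested on 61 to 132 reads and Cckbr on 156 to 308 reads per library, and counting error alone limits small differences there.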
